A study of Mus musculus with 12 samples.

Results

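The early growth response genes *Egr1*, *Egr2*, *Egr3* and *Egr4* and the corepressor genes *Nab1* and *Nab2* were described in BMMCs, bone marrow-derived mast cells raised in vitro from marrow progenitors of the mouse. They were chosen by symbol, and all 6 were found among the 16234 genes of the count table. RNA-seq covered 12 libraries in 6 groups of 2, which combine the genotype label of *Elk4* (wild type, WT; heterozygous, HZ; knockout, KO) with the state of the cells (unstimulated or stimulated). The mice were littermates of a conventional knockout line on a C57BL/6N background, of either sex and 6 to 12 weeks old, and all BMMCs had been grown for 4 to 8 weeks with IL-3 and SCF. Stimulated cells of each genotype were loaded overnight with anti-DNP IgE at 0.5 µg/ml and then received 100 ng/ml DNP-HSA, the antigen that crosslinks IgE on its receptor FcϵRI, for 1 h. Unstimulated cells are labelled untreated, and whether they had been given IgE is not stated. What a replicate number stands for (a culture, an animal) is not stated either, so p-values measure only the spread between these libraries.

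EGR proteins are zinc finger transcription factors of the immediate early class, whose genes are transcribed within minutes of receptor signalling through the ERK pathway and calcium. ELK4 belongs to the ternary complex factors, Ets family proteins that bind with the serum response factor SRF at CArG boxes in the promoters of such genes and are phosphorylated by ERK. NAB1 and NAB2 bind to EGR proteins and repress their activity, in part through CHD4 and the NuRD complex, and *NAB2* is itself known as an EGR target, which makes a feedback loop. In mast cells, EGR factors have been linked to transcription of cytokine genes after crosslinking of FcϵRI.

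Library totals lay between 29697958 and 35531667 counts on genes, and the biological coefficient of variation between replicates was 4.01%. Of 11 mast cell markers, such as *Kit*, *Fcer1a* and *Cpa3*, all 11 were in the table, none was at 0 in any group, and their summed level lay between 34249 and 46501 FPKM. In the unstimulated state *Elk4*, the targeted gene, had 2613 and 2253 counts in the libraries labelled KO, 3238 and 2837 (HZ) and 2426 and 2740 (WT), an order that is not that of the labels. Scaled to library size, unstimulated *Elk4* was lower in KO than in WT by a log2 fold change of -0.19 (SE 0.06; edgeR adjusted p = 0.00872). In HZ it was higher than in WT by 0.24 (SE 0.06; edgeR adjusted p = 0.000484). Gene-level counts do not resolve a deletion inside the gene, and the groups are called by their labels. In bulk RNA, fewer cells expressing a gene and less RNA per cell cannot be told apart.

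Promoter sequence was available from RefSeq (build GRCm38.p6, an older build than the GRCm39 the counts rest on) for 4 of the 6 genes, *Egr2*, *Egr4*, *Nab1* and *Nab2*. Each window ran from 250 bases before to 50 after an annotated transcript start, with 5 windows for *Egr2* and 1 for each of the others. The stretches below are shown because they hold the motifs through which these families are known to be regulated, with the motif in capitals: the CArG box with an adjoining Ets core (GGAA) or CRE core (TGACG on either strand), the CRE cores of *Egr4*, and the EGR site (GCGTGGGCG on either strand) of *Nab1*.
Egr2, chr10:67537486-67537515, plus strand: gatcttctCCTTTTTTGGAAagtctcggag
Egr2, chr10:67537789-67537818, plus strand: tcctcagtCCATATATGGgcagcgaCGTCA
Egr4, chr6:85513685-85513774, minus strand: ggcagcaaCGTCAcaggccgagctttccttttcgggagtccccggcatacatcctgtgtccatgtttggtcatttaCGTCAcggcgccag
Nab1, chr1:52500575-52500594, minus strand: gcggcCGCCCACGCcgggat
Nab1, chr1:52500543-52500562, minus strand: gccgcGCGTGGGCGggagcc
Both *Egr2* stretches and that of *Egr4* lie outside the exons of GENCODE vM21, and both *Nab1* stretches lie in an exon of a longer *Nab1* transcript. The *Egr2* stretches each end 51 bases before a RefSeq start. In the first, the Ets core overlaps the end of the CArG box by the letters GG. In the second, an Ets core on the other strand (TTCC, chr10:67537788-67537791) lies shortly before the CArG box. The stretch shown begins inside that Ets core and does not mark it. The CArG box occurred in 4 of the 5 *Egr2* windows, 3 of which overlap and share one box, and in 1.63% of all 32851 windows searched on both strands. The CRE core occurred in 20.8% of windows, the full CRE (TGACGTCA) in 1.79%, the EGR site in 0.612%, its variant GCGGGGGCG (also found once in the *Nab1* window) in 2.91% and the Ets core in 96.0%. The *Nab2* window held Ets cores and none of the other motifs, so no EGR site was found there. The *Egr4* window held no CArG box and no EGR site. A match describes letters and is not a measured binding site.

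The first question was how these genes stood in the cells before stimulation. In unstimulated BMMCs, all 4 EGR transcripts were highest in WT, intermediate in KO and lowest in HZ, and *Nab2* stood in the reverse position, lowest in WT. Levels are given in CPM, counts scaled to library size with edgeR's TMM factors, 1 value per library, and log2 fold changes come from edgeR's quasi-likelihood test, with p-values adjusted by the Benjamini-Hochberg method over 12208 genes. *Egr1*, the founding member of the family, stood at 693 and 679 CPM in WT, 360 and 342 in KO and 179 and 176 in HZ. No 2 of the groups overlapped. *Egr3* was the most abundant of the 4 at rest, with 2577 and 2585 CPM in WT, 1434 and 1400 in KO and 614 and 605 in HZ. *Egr2*, best known from myelination and from T cell tolerance, covered a wider span of 265 and 251 CPM in WT, 73.6 and 69.2 in KO and 20.8 and 23.0 in HZ. *Egr4*, a member that lacks the region through which the other EGR proteins bind NAB, was near the limit of detection outside WT, at 413 and 355 counts in WT, 38 and 27 in KO and 1 and 9 in HZ. For each EGR gene the libraries of the 3 groups kept the same order with no overlap. How many of all genes separate in this way was not counted. Without a fold threshold, the adjusted p was below 0.05 for 44.6% of all genes in unstimulated KO against WT. For unstimulated HZ against WT the share was 51.4%, and for unstimulated KO against HZ it was 45.2%.

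Against WT, the unstimulated HZ libraries were lower by log2 fold changes of -1.95 for *Egr1* (standard error, SE, 0.02; edgeR adjusted p = 1.77e-47), -3.56 for *Egr2* (SE 0.04; edgeR adjusted p = 1.37e-50), -2.08 for *Egr3* (SE 0.02; edgeR adjusted p = 7.89e-53) and -6.22 for *Egr4* (SE 0.24; edgeR adjusted p = 2.00e-26). These are 3.87-fold, 11.8-fold, 4.23-fold and 74.9-fold ratios of the means. The *Egr4* value rests on 10 counts in HZ, and with 1 library left out it lay between -8.44 (without HZ replicate 2) and -5.35 (without HZ replicate 1). With limma on log2(FPKM + 1) it was -2.68. *Nab2* was 2.36-fold higher in HZ. Genes were called where the adjusted p was under 0.05 and the change 2-fold or more. By this rule 1 of the 6 genes was higher and 4 were lower, against 3.83% and 5.32% of all genes tested. In KO against WT, *Egr2* was lower by a log2 fold change of -1.85 (SE 0.03; edgeR adjusted p = 3.21e-41) and *Egr4* by -3.66 (SE 0.17; edgeR adjusted p = 8.34e-24). *Egr1* at -0.97 and *Egr3* at -0.87 passed the adjusted p but not the 2-fold threshold. Hence 2 of the 6 genes were called lower, against 4.87% of all genes, and none was called higher, against 2.64%. Without KO replicate 1, the *Egr1* value was -1.0029 and passed, which brought the number to 3. The KO and HZ comparisons use the same WT libraries.

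The difference between KO and HZ was tested directly. Unstimulated KO stood above HZ by log2 fold changes of 0.98 for *Egr1*, 1.71 for *Egr2*, 1.22 for *Egr3* and 2.56 for *Egr4* (SE 0.46), with edgeR adjusted p-values from 4.41e-43 to 6.33e-06. All 4 passed the adjusted p, and 3 of the 6 genes were called higher at 2-fold and none lower, against 1.29% and 2.06% of all genes. *Egr1*, at 1.98-fold, fell short, and passed at 1.02 without KO unstimulated replicate 2 and at 1.01 with library totals or with limma on log2(FPKM + 0.1), which brought the number to 4. The *Egr4* value moved between 1.69 and 4.78 with 1 library left out, since 1 of the HZ libraries held 1 count of this gene and the other 9, and was 0.44, short of 2-fold, with limma on log2(FPKM + 1), a scale that compresses low values.

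Markers of other cells were examined beside the resting order. The summed level of the mast cell markers was 38411 and 39289 FPKM in unstimulated WT, 42212 to 43149 in KO and 45063 to 46501 in HZ, opposite to the EGR order. Of the 11 markers, 5 had means in that order, among them *Cpa3* and *Cma1*, which make up much of the sum, and the other 6 did not. *Hdc*, which encodes histidine decarboxylase, stood at 53.4 FPKM in WT, 44.6 in HZ and 7.08 in KO, *Kit* and *Mitf* were highest in WT, and *Gata2* and *Tpsb2* were lowest in KO. Of 8 macrophage or monocyte markers, all were in the table and they summed to between 1.54 and 2.27 FPKM over the unstimulated libraries, with *Mrc1* at 0 in WT. A pair of dendritic cell markers in the table (of 4) summed to 1.45 to 1.95 FPKM in WT and 0.325 to 0.469 in HZ and KO. Nearly all of this was *Itgax*, with means of 1.7 in WT, 0.324 in HZ and 0.406 in KO. The other, *Flt3*, was at 0 in WT and KO and at 0.0025 in HZ. Other lists were in the table only in part, with 5 of 7 neutrophil, 3 of 4 eosinophil and 3 of 4 B cell markers. Of the T cell markers 1 of 5 was there (*Cd4*), of the stromal ones 2 of 4, and of the erythroid ones all 4. In no unstimulated library did the markers present in any of these 6 lists sum to over 0.833 FPKM. The 4 basophil markers summed to 624 to 868 FPKM, mostly *Itga2b*, and the basophil protease gene *Mcpt8* lay at 6.84 to 10.6. Whether these shifts take part in the EGR difference was not tested.

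**Figure D1:**
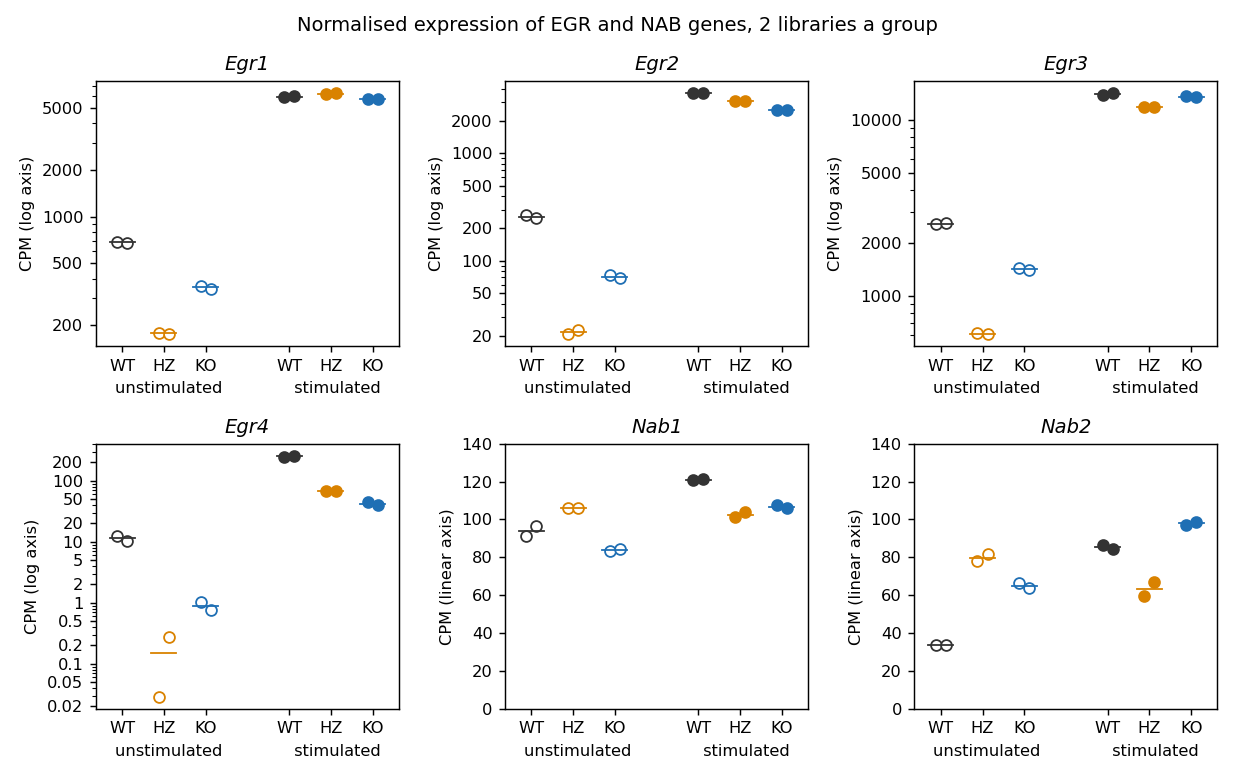
CPM of each gene in each of the 12 libraries, by genotype label (WT, HZ, KO) and state; open points are unstimulated and filled points stimulated libraries, the short lines are means, the 4 EGR panels have log axes and the *Nab1* and *Nab2* panels linear ones. The EGR genes fall apart by genotype before stimulation and lie close together after it except for *Egr4*, and unstimulated *Nab2* is lowest in WT at 33.8 and 33.9 CPM.

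Stimulation for 1 h raised all 4 EGR genes in each genotype. As ratios between genotypes, the levels they reached lay closer together than the levels they started from. Stimulated *Egr4* still stood 5.97-fold lower in KO than in WT. In CPM, the gap between the highest and lowest genotype means narrowed for *Egr1* and widened for *Egr2*, *Egr3* and *Egr4*. *Egr1* reached 5869 and 6019 CPM in WT, 5744 and 5747 in KO and, highest, 6152 and 6264 in HZ. These values span 1.08-fold in their means, where the unstimulated means had spanned 3.87-fold. *Egr3* reached 13855 and 14293 CPM in WT, 13717 and 13570 in KO and 11938 and 11898 in HZ, which gave it a rank between 8 and 11 among the genes of every stimulated library by FPKM. *Egr2* reached 3633 and 3623 CPM in WT, then 3034 and 3075 (HZ) and 2530 and 2556 (KO), and its groups stayed apart in that order. *Egr4* reached 248 and 256 CPM in WT but only 66.6 and 66.9 in HZ and 45.0 and 39.3 in KO.

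The rise in WT was 8.66-fold for *Egr1* (log2 fold change 3.12, SE 0.02; edgeR adjusted p = 3.49e-57), 14.1-fold for *Egr2* (3.82, SE 0.03; edgeR adjusted p = 8.58e-57), 5.45-fold for *Egr3* (2.45, SE 0.02; edgeR adjusted p = 6.49e-57) and 22.3-fold for *Egr4* (4.48, SE 0.08; edgeR adjusted p = 1.85e-41). With *Nab2*, 5 of the 6 genes were called higher in WT and none lower, against 3.71% and 3.06% of all genes. In KO the same 4 EGR genes rose by log2 fold changes of 4.03, 5.15, 3.27 and 5.56, that is 16.4-fold, 35.6-fold, 9.63-fold and 47.1-fold, and 4 of the 6 genes were called higher and none lower, against 3.73% and 2.88% of all genes. In HZ they rose by 5.13, 7.12, 4.29 and 8.78, or 35.0-fold, 140-fold and 19.6-fold for *Egr1*, *Egr2* and *Egr3*, and 4 of 6 were called higher and none lower, against 7.02% and 7.28% of all genes. For *Egr4* in HZ the starting level of 1 and 9 counts leaves the size open, and the log2 fold change was 7.91 without HZ unstimulated replicate 1 and 11.0 without replicate 2.

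**Figure D2:**
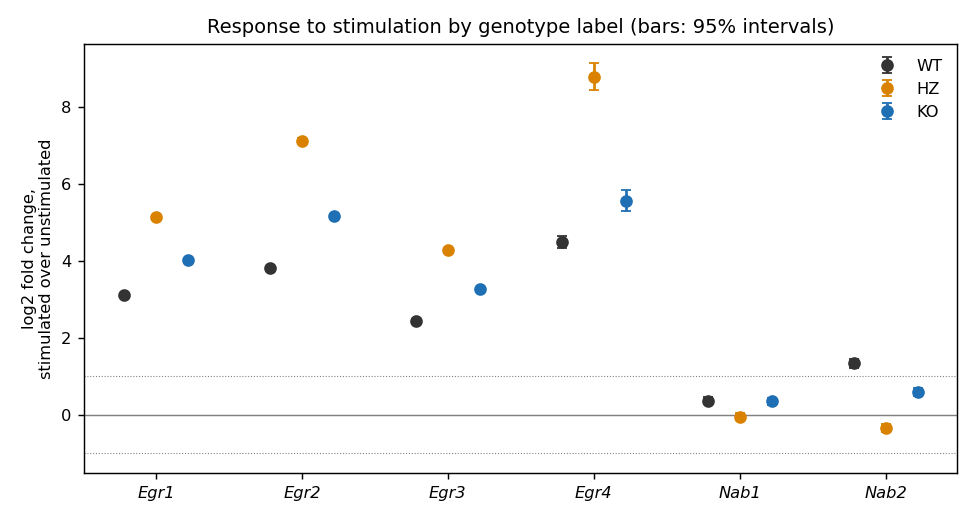
Log2 fold change of stimulated over unstimulated libraries for each gene and genotype label, with 95% intervals from edgeR's quasi-likelihood fit; dotted lines mark 2-fold. The EGR genes rise most in HZ and least in WT, from 2.45 for *Egr3* in WT to 8.78 for *Egr4* in HZ, while *Nab2* rises most in WT at 1.34 and lies below 0 in HZ at -0.34.

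The responses differed between genotypes in a test of the difference itself, the interaction of genotype and stimulation. For KO minus WT, the response was larger by 0.92 for *Egr1* (SE 0.03; edgeR adjusted p = 4.78e-28), 1.34 for *Egr2* (SE 0.04; edgeR adjusted p = 4.09e-30), 0.82 for *Egr3* (SE 0.02; edgeR adjusted p = 9.49e-30) and 1.08 for *Egr4* (SE 0.21; edgeR adjusted p = 0.000253) on the log2 scale. The *Egr4* value turned to -0.28 (adjusted p = 0.234) with limma on log2(FPKM + 1). At an adjusted p below 0.05, 4 of the 6 genes were called higher and 1 lower, against 5.44% and 3.83% of all genes. These shares depend on single libraries: 402 genes instead of 664 were higher without WT unstimulated replicate 2, and 428 instead of 664 were higher and 270 instead of 468 lower without KO unstimulated replicate 2. For HZ minus WT the difference was 2.01, 3.31, 1.84 and 4.30 for *Egr1* to *Egr4*. Here 4 of the 6 genes were called higher and 2 lower, against 19.9% and 18.6% of all genes. KO minus HZ gave -1.10, -1.97, -1.02 and -3.22, with 2 genes called higher and 4 lower, against 20.2% and 21.3%. The interactions with WT share the WT libraries, and each uses the resting levels described above.

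On the linear scale the gains of *Egr1*, *Egr2* and *Egr3* differed less between genotypes than their fold changes. *Egr1* gained 5258 CPM in WT, 6031 in HZ and 5395 in KO, with standard errors of 75.4, 55.9 and 8.89 from 2 libraries a group. *Egr3* gained 11493, 11309 and 12227 CPM. *Egr2* gained 3370 CPM in WT, 3032 in HZ and 2472 in KO. For *Egr4* the gains were unequal on this scale as well, at 241, 66.6 and 41.3 CPM, and largest in WT, where its fold change by edgeR was smallest. These gains are a description and were not tested.

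After stimulation the genotypes were compared at the study's thresholds for them, which ask for an adjusted p under 0.05 with a ratio of 1.5 or more, or of 0.66 or less. *Egr4* was the one gene of the 6 called against WT, lower by -1.92 in HZ (SE 0.06; edgeR adjusted p = 1.27e-28) and by -2.58 in KO (SE 0.07; edgeR adjusted p = 3.54e-33), or 3.77-fold and 5.97-fold below WT. In each of these 2 comparisons that is 1 of 6 genes called lower and none higher. Of all genes, 4.33% were lower and 3.56% higher in HZ, and 7.22% were lower and 5.44% higher in KO. *Egr2* lay 1.19-fold below WT in HZ and 1.43-fold below WT in KO, past the adjusted p (edgeR, 3.45e-11 and 4.54e-22) and short of the fold threshold. *Egr3* differed from WT by -0.24 in HZ (edgeR adjusted p = 8.14e-16) and by -0.04 in KO (edgeR adjusted p = 0.0368). *Egr1* was 0.06 above WT in HZ (edgeR adjusted p = 0.0177), and in KO it was -0.05 from WT with a 95% interval of -0.09 to -0.01 (edgeR adjusted p = 0.0606).

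KO and HZ also differed after stimulation. *Egr4* was lower in KO than in HZ by -0.66 (SE 0.07; edgeR adjusted p = 1.33e-10), which passed the fold threshold, and *Nab2* was higher by 0.64 (SE 0.06; edgeR adjusted p = 4.18e-13), so 1 of 6 genes was called higher and 1 lower, against 1.81% and 3.51% of all genes. Each call was lost when 1 library was left out. *Egr4* stood at -0.57 without KO stimulated replicate 2, and *Nab2* at 0.55 without HZ stimulated replicate 1. The other EGR differences between KO and HZ were -0.11 for *Egr1*, -0.26 for *Egr2* and 0.20 for *Egr3*.

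**Figure D3:**
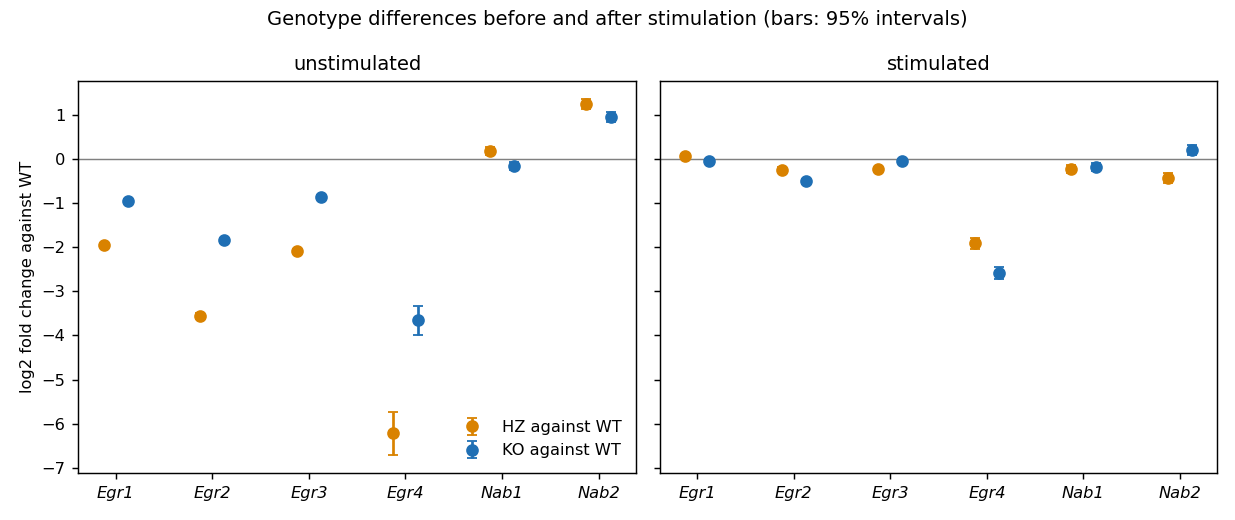
Log2 fold change of HZ and KO against WT for each gene in unstimulated and in stimulated libraries, with 95% intervals; both comparisons in a panel share the WT libraries. The EGR genes lie between -6.22 and -0.87 before stimulation, and after it only *Egr4* lies below -1, at -1.92 in HZ and -2.58 in KO.

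The corepressor genes behaved differently from the factors and from each other. *Nab2* had 33.9 and 33.8 CPM in unstimulated WT, 66.5 and 63.6 in KO and 78.2 and 81.5 in HZ. It was thus higher at rest by 1.24 on the log2 scale in HZ (SE 0.06; edgeR adjusted p = 2.27e-23), and by 0.94 in KO (SE 0.06; edgeR adjusted p = 1.22e-18), the latter 1.92-fold and short of 2-fold. After stimulation it stood at 97.0 and 98.8 CPM in KO, 86.7 and 84.4 in WT and 59.3 and 66.7 in HZ. *Nab2* therefore rose 2.53-fold in WT (log2 fold change 1.34, SE 0.06; edgeR adjusted p = 9.07e-25), moved by 0.59 in KO (SE 0.05; edgeR adjusted p = 6.64e-13) and by -0.34 in HZ (SE 0.06; edgeR adjusted p = 5.12e-07), neither of them 2-fold. Stimulated HZ and unstimulated KO were the one neighbouring pair of groups that overlapped in the order of levels of any of the 6 genes. How often such neighbours overlap over all genes was not counted. The response of *Nab2* was smaller than in WT by -1.68 in HZ (SE 0.08; edgeR adjusted p = 1.56e-22) and by -0.75 in KO (SE 0.08; edgeR adjusted p = 6.32e-10).

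*Nab1* stayed within a narrow range, from 83.1 and 84.4 CPM in unstimulated KO to 121 and 121 in stimulated WT. It moved on stimulation by 0.37 in WT (SE 0.04; edgeR adjusted p = 1.84e-09), 0.35 in KO (SE 0.05; edgeR adjusted p = 1.01e-08) and -0.05 in HZ (SE 0.04; edgeR adjusted p = 0.378), in no genotype by 2-fold. The HZ response was smaller than that of WT by -0.41 (SE 0.06; edgeR adjusted p = 4.73e-07), and for KO minus WT the interval of -0.15 to 0.11 included 0. The scaling matters for a gene this flat: with library totals in place of TMM factors, the median of all genes shifts to -0.32 in WT, -0.24 in HZ and -0.30 in KO, and the *Nab1* values to 0.06, -0.28 and 0.06, with adjusted p-values of 0.240, 5.44e-07 and 0.232. *Nab2* then stood at 1.03, -0.57 and 0.30, in the same order.

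Levels of different genes were compared per length, with the deposited FPKM values. These are scaled to library totals and not with TMM factors. On library totals, the median log2 fold change of all genes on stimulation was -0.32 in WT, -0.24 in HZ and -0.30 in KO. Sums in FPKM are thus not on the CPM scale used above when the 2 states are compared. Shares and ratios within a library do not depend on this scaling. Before stimulation, the 4 EGR genes summed to 1032 and 1030 FPKM in WT, 534 and 516 in KO and 230 and 226 in HZ. Stimulated libraries held 5736 and 5874 in WT, 5308 and 5277 in KO and 5293 and 5292 in HZ, or 1.95% to 2.19% of all counts of a library. *Egr3* made up 67.4% to 72.2% of the EGR sum at rest and 49.9% to 56.4% after stimulation, while the share of *Egr2* went from 2.62% to 7.63% at rest to 11.5% to 15.3%. *Egr4* never exceeded 1.83% of the sum.

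Taken as sums, the NAB genes stood below the 4 EGR genes in every library, which was not so for each EGR gene alone. In unstimulated HZ, *Egr2* had a mean of 6.32 FPKM, against 22.2 for *Nab1* and 33.5 for *Nab2*. *Egr4* had a mean of 17.7 FPKM in stimulated KO, against 34.3 for *Nab2*. The NAB genes summed to 34.4 and 35.7 FPKM in unstimulated WT, 46.2 and 45.2 in KO and 55.0 and 56.3 in HZ, and to between 39.4 and 53.1 FPKM in stimulated libraries. *Nab2* supplied 41.3% to 42.7% of that sum in unstimulated WT and 59.7% to 61.6% in unstimulated HZ and KO. The summed EGR transcript thus exceeded the summed NAB transcript 28.9- and 30.003-fold in unstimulated WT, 11.4- to 11.6-fold in KO and 4.02- to 4.17-fold in HZ. After stimulation the ratio was 99.3 to 134 in all 3 genotypes, and highest in HZ. These are ratios of transcript and say nothing of protein.

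**Figure D4:**
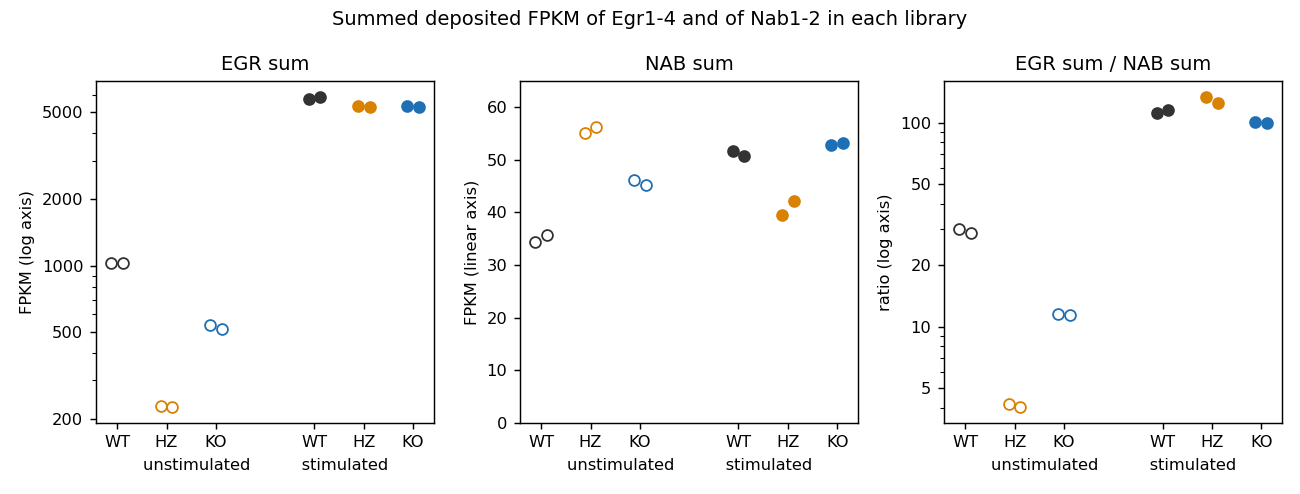
Summed deposited FPKM of the 4 EGR genes (log axis), of the 2 NAB genes (linear axis) and the ratio of the sums (log axis), 1 point per library, open for unstimulated and filled for stimulated. The ratio is lowest in unstimulated HZ at 4.02 and 4.17 and reaches 99.3 to 134 in the stimulated libraries.

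The genes whose log2 CPM followed each member most closely were found by Pearson's r over the 12 libraries, which fall into stimulated and unstimulated ones, so r is given as a description. *Egr1* was followed most closely by *Csrnp1* (r = 0.999), *Fos* (r = 0.999) and *Spty2d1* (r = 0.998). *Fos*, an AP-1 subunit and another immediate early gene, had unstimulated means of 14.98 CPM in WT, 6.32 in KO and 2.57 in HZ and stimulated means of 543, 514 and 656. *Egr2* was closest to *Egr3*, *Nfil3* and *Nr4a1*, and *Egr3* to *Nr4a1* (r = 0.999), *Egr2* and *Tra2a*. *Nr4a1*, an orphan nuclear receptor gene, showed the same resting order, with 324 CPM in WT, 123 in KO and 31.6 in HZ, and reached 6864, 7231 and 6310.

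*Egr4* was closest to *Dusp5* (r = 0.987), and *Ankib1* was also among its 3 nearest genes. *Dusp5*, a phosphatase of ERK, stood at 56.0, 18.9 and 10.8 CPM in unstimulated WT, KO and HZ and at 149, 105 and 101 after stimulation, so that its stimulated level was likewise highest in WT. *Nab1* was closest to *Glul* (r = 0.966), *Plpp3* and *Kdm3a*, and *Nab2* to *Hsd17b11* (r = 0.953), *Gabarap* and *Cyp11a1*. Among the members, the 4 EGR genes correlated with each other at r of 0.942 to 0.997, and *Nab2* with them at 0.0969 to 0.317.

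Genes around the EGR factors were examined as lists. Upstream, the ternary complex factors and SRF (4 genes: *Elk1*, *Elk3*, *Elk4*, *Srf*) had a median log2 fold change on stimulation of 0.11 in WT, -0.06 in HZ and 0.13 in KO. None was called at 2-fold, against 3.71% of all genes higher and 3.06% lower in WT. The shares were 7.02% and 7.28% in HZ and 3.73% and 2.88% in KO. Past the adjusted p alone, 2 of the 4 were higher in WT, against 22.4% of all genes, and 2 in KO, against 20.4%. In HZ 2 were higher and 2 lower, against 32.9% and 31.6%. *Srf*, the partner of the ternary complex factors, moved by 0.28 in WT, 0.54 in HZ and 0.24 in KO. The 14 genes of the ERK cascade, from *Sos1* to the RSK gene *Rps6ka3*, had medians of 0.04, 0.03 and 0.05. Past the adjusted p alone, 5 were higher and 1 lower in WT, against 22.4% and 22.9% of all genes, and none of these reached 2-fold. Of 11 calcineurin, NFAT and MEF2 genes tested (of 13), 1 was called higher in WT and in KO, against 3.71% and 3.73% of all genes, and 2 in HZ, against 7.02%, and none was called lower in any genotype, against 3.06%, 2.88% and 7.28% in WT, KO and HZ. The gene called in all 3 was *Rcan1*, a calcineurin inhibitor and known calcium target, and the other in HZ was *Ppp3cc*, a catalytic subunit of calcineurin, at 6.27 CPM before and 12.9 after. *Rcan1* rose from 34.3 CPM to 1832 in WT, from 27.8 to 1503 in KO and from 25.8 to 1780 in HZ.

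Genes of the inhibitors that damp ERK signalling are themselves known to be induced by it. Of 12 such genes, 8 were called higher and 1 lower in WT, 7 and 1 in KO and 8 and 2 in HZ, with a median log2 fold change of 1.89, 1.96 and 3.28 against medians of all genes of -0.013, -0.0068 and -0.0048. The percentages of all genes called stand with the EGR responses above. *Dusp1*, a nuclear phosphatase of MAP kinases, rose from 8.04 CPM to 197 in WT, from 6.30 to 529 in KO and from 4.93 to 437 in HZ. Its response was larger than in WT by 1.78 in KO (edgeR adjusted p = 4.72e-19) and by 1.85 in HZ (edgeR adjusted p = 1.69e-19), with the gap lying mainly in the stimulated level. *Dusp6*, a cytoplasmic ERK phosphatase, resembled the EGR genes at rest, with 107, 48.1 and 34.2 CPM in WT, KO and HZ, and reached 507, 269 and 344. *Dusp4* rose from 96.5 to 722 CPM in WT, and its response was larger by 0.46 in HZ (edgeR adjusted p = 4.46e-10). *Spry2*, a Sprouty inhibitor of receptor signalling, went from 16.1, 11.1 and 8.40 CPM to 155, 152 and 149. *Dusp2*, at 10 and 27 counts in unstimulated WT, was higher at rest in KO (132 and 96 counts) and HZ (70 and 45). *Spry1* had 3 and 2 counts in unstimulated WT and 220 and 229 in stimulated WT. It passed the expression filter through its stimulated libraries, so its call as higher is not separate from the filter.

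Downstream, NAB-recruited NuRD and described EGR targets were listed. None of the 13 NuRD subunit genes changed 2-fold on stimulation, and their medians were 0.09 in WT, 0.19 in HZ and -0.0049 in KO. Without the fold threshold 6 were higher and none lower in WT, against 22.4% and 22.9% of all genes. In HZ 8 were higher and 2 lower, against 32.9% and 31.6%, and in KO 2 were higher and 1 lower, against 20.4% and 20.5%. *Rbbp7*, a histone-binding subunit, had the largest response differences of the list, -0.75 for KO minus HZ (edgeR adjusted p = 7.51e-13) and 0.66 for HZ minus WT (edgeR adjusted p = 3.23e-11).

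Of 28 genes described elsewhere as EGR targets, 24 passed the expression filter, and 13 of them were called higher and 1 lower in WT, 13 and 1 in KO and 12 and 1 in HZ, against the percentages of all genes given above. The response was larger than in WT for 9 of the 24 and smaller for 6 in HZ, against 19.9% and 18.6% of all genes, with a median difference of 0.033, and larger for 7 and smaller for 2 in KO, against 5.44% and 3.83%, with a median of 0.11. The filter favours genes that are high in some group. *F3*, *Sphk1* and *Arc*, called higher in all 3 genotypes, passed it through their stimulated libraries, so these calls are not separate from the filter. *Arc* had 9 and 3 counts in unstimulated WT and 50 and 48 in stimulated WT. *Tnf*, the cytokine gene, rose from 6.56 CPM to 4388 in WT, from 4.71 to 3398 in KO and from 2.46 to 4362 in HZ, and *Il13* from 21.2 to 1249, from 13.2 to 963 and from 8.69 to 967. Both were lowest at rest in HZ, and their response was larger in HZ than in WT by 1.41 (edgeR adjusted p = 2.79e-15) and 0.92 (edgeR adjusted p = 1.92e-13). *Ptgs2*, which encodes cyclooxygenase-2, rose from 2.97 to 748 CPM in WT, 1.28 to 1019 in KO and 0.969 to 1029 in HZ, and its response was larger by 1.66 in KO (edgeR adjusted p = 1.19e-07) and 2.10 in HZ (edgeR adjusted p = 3.37e-10). Its resting libraries were low and uneven, at 66 and 138 counts in WT, 63 and 31 in KO and 21 and 44 in HZ. *Sphk1* had 1 and 2 counts in unstimulated and 138 and 134 in stimulated WT, and *F3* 0 and 0 against 21 and 18, so that no fold is given for either. A further pair was chosen after their values were seen. *Id3*, an inhibitor of basic helix-loop-helix factors and the 1 gene called lower, went from 5.38 CPM to 1.73 in WT, 24.2 to 5.08 in KO and 13.8 to 5.72 in HZ. *Plaur*, the urokinase receptor gene, was like it lowest at rest in WT, and went from 7.22 CPM to 14.5 in WT, 14.4 to 77.9 in KO and 10.7 to 37.2 in HZ.

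**Figure D5:**
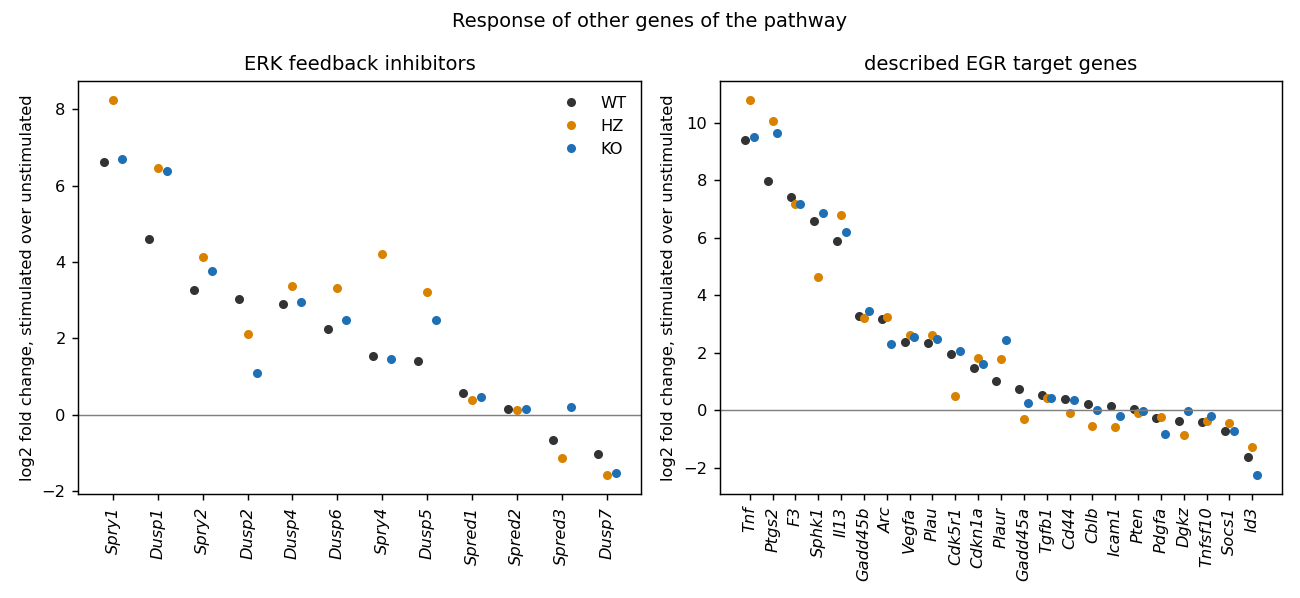
Log2 fold change on stimulation of the tested genes of the ERK feedback list (12 genes) and of the described EGR targets (24 genes, of which 1 is not drawn), by genotype label, ordered by the WT value. In WT, 8 of the 12 and 13 of the 24 genes are called higher, and *Dusp1* rises more in HZ and KO than in WT. The values of *F3*, *Sphk1*, *Arc* and *Spry1* rest on few unstimulated counts.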

How the data were processed

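The authors deposited raw read counts per gene and FPKM values for 12 libraries, made per the labels with fastp, HISAT2 and HTSeq on GRCm39 (versions not given in the sources used here). The deposited FPKM equal counts divided by gene length and library total. Whether counting used strand is not given in the sources used here, and RefSeq lists a neighbour that overlaps *Nab2* (*Stat6*) and one that overlaps *Egr2* (*Gm32255*), so reads of the overlaps may not be told apart. Counts were tested with edgeR 4.0.16 in R 4.3.3 (filterByExpr, TMM, quasi-likelihood fit of the 6 groups, Benjamini-Hochberg over 12208 of 16234 genes), checked on simulated data. Standard errors come from the fold change and its F statistic, and p-values are two-sided. Alternatives were DESeq2 1.42.0, limma 3.58.1 on log2(FPKM + 1) and log2(FPKM + 0.1), other scalings, filters and thresholds, a replicate block and leaving out each library. The genes and lists were chosen with earlier results of these data known. Named list genes were those called in stimulated WT or in a response difference, at most 6 a list by size of change, and for likeness the 3 genes with the highest r; a few genes that these rules name are not reported here. The 2 libraries of a group were not duplicates of each other.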

Additional observations from a re-analysis of the deposited data

Results flagged for a closer look

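The interaction test found genotype differences in the response to stimulation in 17 of the 18 combinations of a gene with a pair of genotypes, at an adjusted p below 0.05 by edgeR. Of all genes, 5.44% were called higher and 3.83% lower for KO minus WT, and 19.9% and 18.6% for HZ minus WT. For KO minus HZ the shares were 20.2% and 21.3%. The KO minus HZ value of a gene follows from its other differences, so the combinations are not separate results. All values are differences of log2 fold changes. For KO minus WT they were 0.92 for *Egr1*, 1.34 for *Egr2*, 0.82 for *Egr3*, 1.08 for *Egr4* and -0.75 for *Nab2*, and *Nab1* at -0.02 (adjusted p = 0.919) was the one that did not pass. For HZ minus WT they were 2.01 for *Egr1*, 3.31 for *Egr2*, 1.84 for *Egr3*, 4.30 for *Egr4*, -0.41 for *Nab1* and -1.68 for *Nab2*. For KO minus HZ they were -1.10 for *Egr1*, -1.97 for *Egr2*, -1.02 for *Egr3*, -3.22 for *Egr4*, 0.40 for *Nab1* and 0.93 for *Nab2*. The *Egr4* values that involve HZ rest on 1 and 9 counts in the unstimulated HZ libraries, and with 1 library left out they lay between 3.43 and 6.51 for HZ minus WT and between -5.45 and -2.36 for KO minus HZ. Groups of 2 libraries allow no search for a deviating library.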

How the results depend on the processing

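Over all alternatives, 184 of 219 numbers of genes called equalled the reported number and 207 lay within 1.5 times of it, and 1259 of 1302 log2 fold changes kept their direction and their side of the threshold. Without a fold threshold, 6 genes instead of 2 were called in unstimulated KO against WT (44.6% of all genes), 6 instead of 3 in unstimulated KO against HZ (45.2%), 5 instead of 1 in stimulated KO against WT (40.4%), 6 instead of 1 in stimulated HZ against WT (34.9%) and 5 instead of 2 in stimulated KO against HZ (24.9%), and for stimulation 6 instead of 5 in WT (45.3%), 5 instead of 4 in HZ (64.4%) and 6 instead of 4 in KO (40.8%). A minimum of 10 counts in every library removes *Egr4* from the fit and left 1 call in unstimulated KO against WT, 0 in stimulated KO against WT, 0 in stimulated HZ against WT and 1 in stimulated KO against HZ, where limma on log2(FPKM + 0.1) also gave 1. With single libraries left out, that last comparison had between 1 and 2 calls. The KO minus WT response of *Egr4* reversed to -0.28 with limma on log2(FPKM + 1), with or without the filter, and stood at 0.86 (adjusted p = 0.191) on log2(FPKM + 0.1). That of *Nab1*, near 0, changed sign to 0.0018 with library totals, 0.00050 with limma on log2(FPKM + 1) with or without the filter, 0.000843 on log2(FPKM + 0.1) and 0.019 without WT unstimulated replicate 1, with a range of -0.079 to 0.019 over the libraries left out in turn. The cause of these changes was not tested. The rise of *Nab2* in WT was 0.98 with limma on log2(FPKM + 1), short of 2-fold. On log2(FPKM + 1) the other *Egr4* values that rest on low counts shrank too, to -2.24 in unstimulated KO against WT, 4.78 for the stimulation of HZ, 0.82 for HZ minus WT and -1.10 for KO minus HZ. Over all genes, 81 of 438 numbers of genes called in 1 direction moved by more than 1.5 times, 51 of them with limma, 18 without the fold threshold and 3 without a library. With limma on log2(FPKM + 1), 204 instead of 453 genes were higher and 149 instead of 373 lower on stimulation in WT. A minimum of 10 counts gave 189 instead of 322 higher and 393 instead of 595 lower genes in unstimulated KO against WT, and an adjusted p below 0.01 gave 386 instead of 664 and 235 instead of 468 for KO minus WT. Library totals gave 848 instead of 373 lower genes on stimulation in WT, 1351 instead of 889 in HZ and 721 instead of 352 in KO.

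No shared effect of replicate number was seen: replicate differences of 2 groups correlated at -0.0358 to 0.0629 over 9858 genes. The highest value was that of unstimulated with stimulated HZ. This cannot tell whether a number marks the same culture or animal in both states. A replicate block changed no call, with 5 genes still called for the stimulation of WT and 5 for KO minus WT.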
